A study of Mus musculus with 6 samples.

Results

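The Sox2ot transcription unit was followed from its annotated start on chromosome 3 (mm9) to just before Sox2, as seen in 4C from the Sox2 control region (SCR), a cluster of enhancers on the far side of Sox2. Members were the DpnII fragments with a midpoint from 34003360 to 34529999, a stretch of 526.64 kb that begins 131 kb from the bait and ends 657 kb from it. There were 1238 such fragments among 7392 within 1.5 Mb of the bait and 391360 on the chromosome. The study presented a browser for 4C data, and the libraries used here were 2 replicates from mouse embryonic stem (ES) cells and 1 from ES cells differentiated in vitro towards neural precursors (NPC), all with the SCR as bait and none with a genetic change named in the labels. The ES libraries were from J1 cells, grown with LIF and moved off feeder cells before harvest. The differentiated library came after 6 days without LIF, the last 4 of them with 5 μM retinoic acid. By the Methods, the ES cells for it were first grown in 2i medium, without feeders. The sources conflict on the starting line of this library, which the labels give as J1 and the Methods as F1. A difference of line or of earlier culture and the differentiation therefore cannot be told apart. The 3 libraries held 6447786, 3915756 and 2889643 reads, and 85.9%, 84.3% and 70.8% of these lay within 1.5 Mb of the bait.

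Sox2 encodes a transcription factor that pluripotent cells and neural progenitors need. Sox2ot is a long noncoding RNA gene on the same strand, and Sox2 lies within one of its introns. 4C counts, for each restriction fragment of a chromosome, the reads from fragments ligated to 1 chosen bait, so a high count marks a piece of DNA that was often near the bait in the fixed nuclei. Such counts hold no expression values, and neither the cell type nor the transcription of Sox2ot could be checked in them.

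GENCODE lists Sox2ot (ENSMUSG00000090828.2, chr3:34003360-34581541, plus strand) with 16 transcripts, of which 9 start in the stretch described here, in 4 groups. Transcription runs towards Sox2 and the bait. Start group 1, of 2 transcripts, begins at 34003360, start group 2, also of 2, at 34095673, start group 3, of 4, at 34459250 and start group 4, of 1, at 34488874. In all, 11 merged exons of Sox2ot fall in the stretch, and their 2039 bp make up 0.387% of it. The other genes annotated there are the pseudogene Gm5708, the processed transcripts Gm20446, Gm20514 and Gm20515 on the minus strand, and a miRNA gene, AC137708.1. The nearest gene beyond the far end is Dnajc19, which encodes a mitochondrial protein. The mirror span, at equal distances past the SCR (chr3:34791001-35317640, 1313 fragments), holds no annotated gene, and the first gene beyond it is a U6 snRNA.

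The sequences below are the starts and fragments on which the results turn, read from the plus strand of mm9. Capitals in the first 2 mark the first 50 transcribed bases, and those in the other 5 mark the DpnII sites at the ends of the fragment. Start groups 3 and 4 are shown because both ES libraries were above NPC within 5 kb of them, though the ES replicates differed there. Both were above NPC at start group 1 too, whose fragment is printed last. The window at start group 3 (chr3:34459150-34459299) has a GC content of 29.3% and that at start group 4 (chr3:34488774-34488923) of 45.3%.
Start group 3: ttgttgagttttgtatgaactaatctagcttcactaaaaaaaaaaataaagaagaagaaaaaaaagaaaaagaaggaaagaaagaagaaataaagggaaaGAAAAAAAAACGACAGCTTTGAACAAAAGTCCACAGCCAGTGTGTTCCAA
Start group 4: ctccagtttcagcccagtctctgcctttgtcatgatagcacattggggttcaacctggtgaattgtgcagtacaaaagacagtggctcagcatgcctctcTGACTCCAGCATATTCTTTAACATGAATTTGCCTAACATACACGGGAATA
The next 2 fragments, chr3:34464847-34465127 and chr3:34498501-34498517, were among the 3 that ranked highest by the lower of their 2 ES signals. The shorter of them has 13 bp between its sites, less than the 27 nt of a mapped read.
ES fragment in step 4: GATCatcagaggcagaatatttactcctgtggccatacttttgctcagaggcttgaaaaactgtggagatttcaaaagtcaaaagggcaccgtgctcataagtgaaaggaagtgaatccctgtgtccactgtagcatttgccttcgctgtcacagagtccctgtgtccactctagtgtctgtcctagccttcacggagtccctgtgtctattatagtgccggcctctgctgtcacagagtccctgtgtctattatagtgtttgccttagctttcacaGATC
ES fragment in step 2: GATCcctgactttGATC
The following 2 fragments, chr3:34518790-34518921 and chr3:34337256-34337401, were among the 3 with the most signal in NPC.
NPC fragment in step 1: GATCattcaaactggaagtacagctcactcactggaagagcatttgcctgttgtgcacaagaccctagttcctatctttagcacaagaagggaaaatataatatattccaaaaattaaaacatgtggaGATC
NPC fragment in step 10: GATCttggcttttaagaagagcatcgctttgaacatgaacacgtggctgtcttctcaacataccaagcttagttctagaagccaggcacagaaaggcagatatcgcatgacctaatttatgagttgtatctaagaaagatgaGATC
The last, chr3:34003324-34003623, holds the annotated start of Sox2ot itself.
Fragment of start group 1: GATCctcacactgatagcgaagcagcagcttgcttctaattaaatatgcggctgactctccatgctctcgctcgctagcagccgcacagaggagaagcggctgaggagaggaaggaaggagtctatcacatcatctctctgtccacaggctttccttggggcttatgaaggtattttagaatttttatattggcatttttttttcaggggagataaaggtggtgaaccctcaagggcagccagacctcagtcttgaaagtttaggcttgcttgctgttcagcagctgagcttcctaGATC

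Over the whole stretch the mean 4C signal was somewhat higher in ES cells than in NPC, while the mirror span carried more signal in NPC. Signals here are counts that were quantile normalized among the 3 libraries over 1.5 Mb to either side of the bait and averaged over the fragments of a region. The Sox2ot stretch had 257 in ES replicate 1 and 294 in ES replicate 2 (276 ± 25.8, SD, n = 2), against 213 for NPC (n = 1). In the mirror span it was 303 and 293 in ES cells and 626 in NPC. The ES mean over Sox2ot was thus 1.29 times the NPC value, with both ES libraries above it. This single value was not tested: an exact permutation of 2 libraries against 1 cannot reach a p under 0.05. This ratio depended on the scaling: with each library scaled to its reads within 1.5 Mb it was 1.06, with 1 ES library below NPC.

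The share of local reads that fell over Sox2ot differed more between the ES replicates than between either of them and NPC. It came to 8.15% (95% Wilson interval 8.13 to 8.18) in ES replicate 1, 9.99% (9.95 to 10.0) in ES replicate 2 and 8.52% (8.49 to 8.56) in NPC, so the NPC value lay between those of the ES replicates. These intervals cover the counting error of reads only, since PCR duplicates cannot be told from separate ligations. In the mirror span the shares were 10.1%, 10.7% and 24.6%. The ratio of reads on the Sox2ot side to reads in the mirror, which needs no scaling between libraries, was 0.806 and 0.930 for the ES replicates (0.868 ± 0.0876, SD, n = 2) and 0.346 for NPC. The ES mean was 2.51 times the NPC value, and both ES ratios stood above it by more than their own difference. The stretch was divided into 27 steps of up to 20 kb. In normalized signal, 20 of 27 in ES replicate 1, 17 in ES replicate 2 and 23 in NPC lay below their mirror step.

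The deepest library, ES replicate 1, had the lowest share of fragments with a read. At least 1 read was found on 44.7% of the member fragments in ES replicate 1 (95% Wilson interval 41.9 to 47.5), on 59.5% in ES replicate 2 (56.7 to 62.2) and on 59.9% in NPC (57.2 to 62.6). The mirror had 56.0%, 68.5% and 70.8%, higher than Sox2ot in each library. The median count of a detected member fragment was 119, 94 and 15 reads, and the 10 fragments with the most reads held 24.9%, 18.7% and 22.8% of all reads over Sox2ot. Of the reads, 50%, counted from the bait outwards, was reached at 266 and 263 kb in the ES libraries and at 358 kb in NPC. In the mirror the corresponding distances were 347 and 319 kb in ES cells and 326 kb in NPC.

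The 27 steps were counted from the Sox2 end, 26 of 20 kb and a last one of 6.64 kb that ends at the annotated start. Across the steps, the log2 signals of the ES replicates had a Pearson r of 0.847 and a Spearman rho of 0.849. NPC had an r of 0.192 with ES replicate 1 and 0.147 with ES replicate 2 (rho 0.162 and 0.134). These values describe 27 neighbouring steps of the same chromosome that share the bait and the decline with distance, and the ES libraries share cell line too. The r of step signal with distance was -0.56 and -0.66 in the ES libraries and -0.22 in NPC. The signal of NPC thus followed distance less closely than that of ES cells, as the plot of step signals shows.

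**Figure D1:**
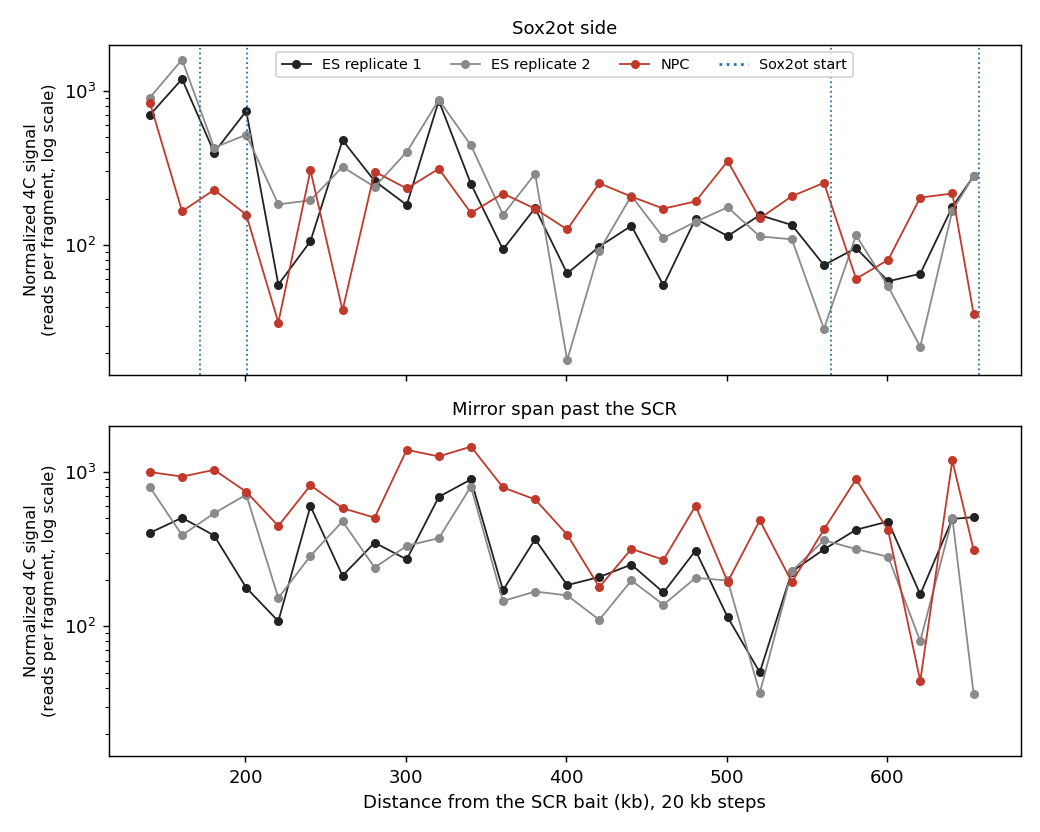
Normalized 4C signal per 20 kb step (mean quantile normalized reads per fragment, log axis) against distance from the SCR bait, for Sox2ot in the upper panel and the mirror span in the lower one. Black and gray points are the ES replicates and red points the NPC library, each point is 1 library, and dotted lines are the 4 start groups of Sox2ot. In the second step the ES libraries stand at 1188 and 1585 and NPC at 166. In the mirror panel NPC lies above both ES libraries in 21 of 27 steps, against 52.7% of the 148 steps on both sides of the bait.

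Contacts fell off past Sox2, and the fall into the first step was steeper in ES cells than in NPC. The 20 kb just before the first step (34530000 to 34549999), which reach into Sox2, had a signal of 4808 and 4276 in ES cells and 1050 in NPC. That was 6.91 and 4.74 times the first step of Sox2ot in ES cells and 1.26 times in NPC. The first step (34510000 to 34529999) had 696 and 902 in ES cells and 834 in NPC. Here the NPC value lay between the ES replicates, and the log2 change of ES over NPC was 0.73 (SE 0.39, edgeR adjusted p = 0.444). The top fragment of each library held 23.2% and 12.1% of the reads of this step in ES cells and 35.5% in NPC. From the first step to the second, the signal rose in both ES libraries, to 1188 and 1585, and fell in NPC, to 166. Sox2 itself (ENSMUSG00000074637.3), 109 kb from the bait, had 22956 and 21737 on its 6 fragments in ES cells and 5585 in NPC.

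In ES cells the highest signal over Sox2ot was in the second step, between start group 4 and the exons next to Sox2. Step 2 (34490000 to 34509999) had a signal of 1188 and 1585 in the ES libraries and 166 in NPC. Both ES libraries were above the NPC library, by a log2 change of 3.53 (SE 0.46, edgeR adjusted p = 0.013). It ranked 1st of the 27 steps in ES cells and 18th in NPC. The fragment with 13 bp between its sites, printed above, held 9883 and 3882 reads in ES cells and 14 in NPC. The running mean over 21 fragments reached its highest value over Sox2ot in the same step, 1981 at 162 kb from the bait in ES replicate 1 and 2393 at 168 kb in ES replicate 2. In NPC the highest running mean was 1686, at 142 kb, in the first step, around a fragment of 8844 reads that also held 12521 and 2727 reads in the ES libraries. AC137708.1, the miRNA gene (chr3:34489443-34489530), lies on a fragment in step 3, next to step 2, that had 1923 and 1663 reads in ES cells and 2 in NPC.

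The tests compared summed reads per step between the ES and NPC libraries with edgeR over 147 steps on both sides of the bait, with the spread taken from the ES replicates and the lone NPC library assumed to vary like them. Of the 27 steps of Sox2ot, 4 were higher in ES cells at an adjusted p under 0.05, against 4.76% of all steps tested. None was lower by edgeR, against 1.36%, and none at an unadjusted p under 0.05, against 4.08%, or with DESeq2, against 3.4%. At an unadjusted p under 0.05, 7 of 27 were higher, against 12.2%, and with DESeq2 at an adjusted p under 0.05 it was 5 of 27, against 11.6%. The median log2 change was 0.23 over Sox2ot, 0.14 over all steps and -0.24 over the mirror. Scaling by library totals moved the median of all steps to -0.43 and that of Sox2ot to -0.36, so the sign of the median over Sox2ot depends on the scaling, and it lay above the median of all steps in both. The 4 called steps kept their direction in each alternative run with 20 kb steps. The number called fell to 2 with library totals, with counts capped, or without the fragment with the most reads in each step. Over all 147 steps, 7, 2 and 4 were higher in these settings. The number fell to 0 with DESeq2 size factors, 40 kb steps, GTAC fragments alone, or a fit over Sox2ot and the mirror alone. In the settings with 0, no step tested was called in either direction.

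**Figure D2:**
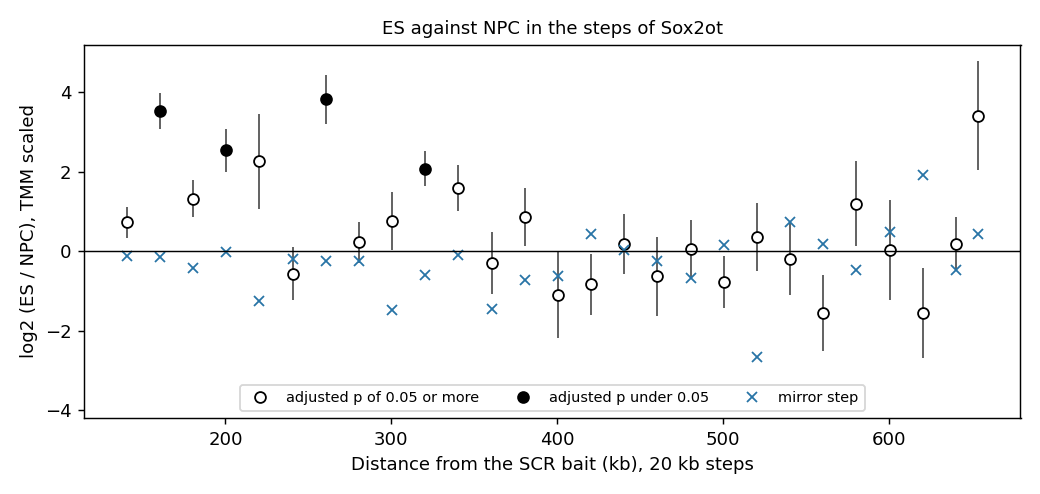
The log2 change of ES over NPC per 20 kb step of Sox2ot (TMM scaled, edgeR) against distance from the bait, with bars of 1 SE, and the log2 change of the mirror step as blue crosses. Filled points are the 4 steps with an adjusted p under 0.05, with log2 changes of 2.08 to 3.82, and all of them lie within 331 kb of the bait.

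The other 3 called steps lay farther along the gene body. Steps 4 and 10 were no longer called with library totals, with counts capped or without the top fragment of each step, while steps 2 and 7 were. Step 4 (34450000 to 34469999), which holds start group 3, had a signal of 737 and 518 in ES cells and 158 in NPC. Its log2 change was 2.54 (SE 0.53, edgeR adjusted p = 0.032), with no overlap between the cell types. The fragment printed for this step held 8052 and 5092 reads in ES cells and 27 in NPC.

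Step 7 (34390000 to 34409999) holds exon 4 of the 11 Sox2ot exons, counted from the far end. Its signal was 477 and 321 in ES cells and 37.8 in NPC, a log2 change of 3.82 (SE 0.61, edgeR adjusted p = 0.023) and the largest of the 27.

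Step 10 (34330000 to 34349999) overlaps Gm20515 and had the second highest mean signal of the ES libraries, at 861 and 870 (in ES replicate 2 step 1 was also above it), and the third highest in NPC, at 312. The log2 change was 2.08 (SE 0.43, edgeR adjusted p = 0.032). This step held strong fragments of both kinds. One of 957 bp (chr3:34332642-34333602), in Gm20515, had 13379 and 5035 reads in ES cells and 27 in NPC. The NPC fragment printed for this step had 7909 and 2759 reads in ES cells and 4256 in NPC, which was 47.2% of the NPC reads in the step. Beyond the first step, the running mean of NPC was highest here too, at 599, 322 kb from the bait, where ES cells reached 1231 (321 kb) and 1453 (324 kb).

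**Figure D3:**
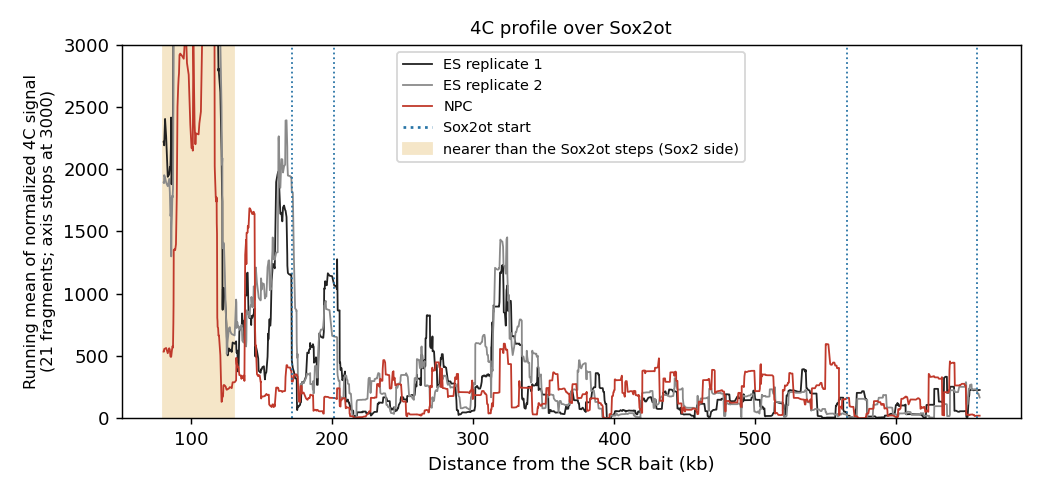
Running mean over 21 fragments of the normalized 4C signal against distance from the SCR bait, with the replicates of ES cells in black and gray, NPC in red, Sox2ot starts as dotted lines and the nearer region around Sox2 shaded. The vertical axis stops at 3000, below the values around Sox2, and the tops over Sox2ot are 1981 and 2393 in ES cells and 1686 in NPC.

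Over all 27 steps the signals of both ES libraries were above NPC in 10, against 25.7% of the 148 steps on both sides of the bait, and both were below it in 13, against 52.7%. The nearer steps held most of the former and the farther steps most of the latter, as counts without a test. Among the 13 steps nearest Sox2, both ES libraries were above NPC in 8, both below in 3, and NPC lay between them in 2. Among the 14 farther steps both were above in 2, both below in 10, and NPC lay between in 2. Median step signals were 260, 400 and 216 in the nearer steps and 106, 113 and 197 in the farther ones, for ES replicate 1, ES replicate 2 and NPC. On the TMM scale of the test, which differs from quantile normalization, the log2 change was positive in 11 of the 13 nearer steps and in 7 of the 14 farther ones. None of the farther steps passed the edgeR test in either direction, and 1, step 27, had an unadjusted p under 0.05 and an adjusted p of 0.023 with DESeq2.

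The farther steps included the second highest of NPC. Step 19 (34150000 to 34169999) had a signal of 114 and 176 in ES cells and 349 in NPC, a log2 change of -0.76 (SE 0.66, edgeR adjusted p = 0.666). It lies in a stretch of Sox2ot without exons or other annotated genes. In step 22, which holds start group 2, 1 fragment of 539 bp (chr3:34104110-34104652) held 4572 reads in NPC, 2 in ES replicate 1 and 0 in ES replicate 2. Such single fragments carried much of the farther signal, and in step 21 the top fragment of each library held 85.2% of its reads in ES replicate 1, 17.9% in ES replicate 2 and 44.8% in NPC. This was not particular to the farther steps. In steps 2, 4, 7 and 10 the top fragment held 46.2%, 44.5%, 27.8% and 47.2% of the NPC reads. The ES libraries had 17.4% to 34.7% there.

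The last step (34003360 to 34009999), which holds the annotated start of Sox2ot, had a signal of 280 and 281 in ES cells and 35.6 in NPC. Its log2 change was 3.41 (SE 1.37) with an unadjusted p of 0.039 and an adjusted p of 0.261 in edgeR over all steps, and it rests on 17 fragments. The top fragment of each library held 77.9% of the step's reads in ES replicate 1, 49.6% in ES replicate 2 and 38.4% in NPC. The fragment that contains the start had no read in ES replicate 1, 110 in ES replicate 2 and none in NPC. A count of 0 allows up to 3 reads if reads are independent, a bound that does not cover PCR duplicates.

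In ES cells the levels rose from one start group to the next towards Sox2. This order is also that of distance from the bait, with which the ES signal fell, and the part of distance was not tested. Between start groups 1 and 2, over 92.3 kb, the signal was 108 and 100 in ES cells and 130 in NPC. Between start groups 2 and 3, over 364 kb, it was 205 and 224 in ES cells and 199 in NPC. NPC was above both ES libraries in the farther of these long parts and below both in the nearer, whose mean joins steps that were higher in ES cells, such as 7 and 10, with others where NPC was above both ES libraries. Between start groups 3 and 4, over 29.6 kb, the values were 462 and 538 in ES cells and 188 in NPC. From start group 4 to the end of the stretch, over 41.1 kb, they were 929 and 1189 in ES cells and 536 in NPC. In the last part both ES libraries stood at 2.12 and 1.97 times the mirror, and NPC at 0.562 times. From start group 3 to 4 these ratios were 1.35 and 0.743 in ES cells and 0.231 in NPC. They were 0.749, 0.949 and 0.335 from start group 2 to 3, and 0.291, 0.363 and 0.230 from start group 1 to 2.

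Within 5 kb of the starts themselves the replicates disagreed at the groups nearest Sox2. Around start group 4 ES cells had 426 and 1607 and NPC 310. Around start group 3 they had 906 and 324, against 249 in NPC. The ES values differ by over 2-fold at both places, while both remain above NPC. Around start group 2 the signal was 56.0 and 29.2 in ES cells and 130 in NPC. At start group 1 the window reached only towards Sox2, since the members begin there, and its 12 fragments had 393 and 397 against 23.8. That window lies within the last step and held 6741, 4342 and 208 of its 6751, 4360 and 438 reads. It is thus no separate result.

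Exons were covered by 15 fragments, with a signal of 769 and 1104 in ES cells and 531 in NPC, and the other 1223 members had 251, 284 and 209. Most of these exons lie from start group 3 on towards Sox2, where the signal of ES cells was higher than over the rest of the stretch, and the part of position in these values was not tested. Of the other genes, Gm20515 (chr3:34326295-34334019) had 908 and 707 in ES cells and 136 in NPC over 13 fragments. Gm20514 (chr3:34223741-34250637) had 88.4 and 109 in ES cells and 230 in NPC, and Gm20446 (chr3:34197440-34221211) had 126, 175 and 137. The order of the cell types therefore differed between these genes, with NPC lowest over Gm20515, highest over Gm20514 and between the ES replicates over Gm20446. The 2 fragments of Gm5708 had 1, 4 and 0 reads. Dnajc19, past the far end, had 261 and 69.6 in ES cells and 67.9 in NPC.

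Each step was then set against its mirror step, where the ratio of read counts within a library is free of scaling between libraries. The test used read counts, while the ratios of signals given here are of quantile normalized values and are not free of it. The test asked whether the ratio of Sox2ot to mirror differed between ES cells and NPC, over 74 distances. It did in 2 of 27 steps, with the ratio higher in ES cells, against 5.41% of all distances. None had a lower ratio by edgeR, against 0.0%, and none at an unadjusted p under 0.05, against 1.35%, while with GTAC fragments alone 1 step did at an unadjusted p. At an unadjusted p under 0.05 it was 6 of 27, against 16.2%. The median log2 difference was 0.93 over Sox2ot and 0.76 over all distances. In step 2 the ratio of the signals was 2.35 and 4.08 in ES cells and 0.178 in NPC, a log2 difference of 3.70 (SE 1.02, edgeR adjusted p = 0.020). In step 7 it was 2.24 and 0.670 in ES cells and 0.0650 in NPC, a difference of 4.14 (SE 1.21, edgeR adjusted p = 0.024). Neither passed with counts capped, or with fragments of at least 27 bp alone, and in those settings none of the 74 distances did. DESeq2 called 6 of 27 higher, against 17.6% of all distances, and 1 lower, against 4.05%, which are shares near those of all distances.

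**Figure D4:**
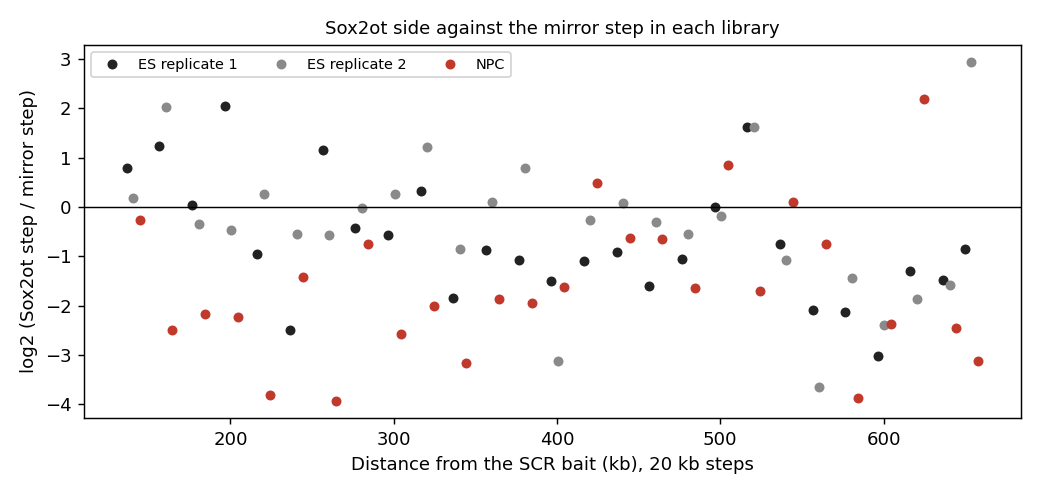
Log2 ratio of the normalized signal of each Sox2ot step to its mirror step against distance from the bait, for ES replicates 1 and 2 (black, gray) and NPC (red), with the points of ES replicate 1 and NPC moved 4 kb to the left and right so that they do not overlap. Points below the line at 0 are steps with less signal than the mirror: 20, 17 and 23 of 27.

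Within ES cells alone, the Sox2ot side exceeded its mirror in 1 of 27 steps at an edgeR adjusted p under 0.05, against 6.76% of all distances, and fell below it in 2, against 8.11%. The higher one was step 2, with a log2 ratio of 1.69 (adjusted p = 0.034 in edgeR), which did not pass with counts capped, in 40 kb steps, with fragments of at least 27 bp, or without the fragment with the most reads. The lower ones were step 22, with -2.66 (adjusted p = 0.013), and step 24, with -2.49 (adjusted p = 0.032, both edgeR). With fragments of at least 27 bp alone, 1 of these calls was left, step 22 (adjusted p = 0.037), and step 24 did not pass (adjusted p = 0.058, both edgeR). In these 2 steps the ratio of normalized signals was at most 0.235 in both ES libraries, with 0.596 and 0.192 in NPC.

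The restriction map of Sox2ot was much like that of its mirror. The median fragment length was 281.5 bp in Sox2ot and 272 bp in the mirror, the GC content 42.8% and 42.9%, and 45.6% and 43.9% of fragments held a GTAC site, where the second enzyme Csp6I cuts. Fragments with such a site were detected more often, at 50.4%, 66.4% and 64.8% of them over Sox2ot against 39.8%, 53.6% and 55.9% of the rest. Across the 27 steps the r of signal with GC content was 0.11 and 0.10 in ES cells and -0.03 in NPC, and with the share of fragments with GTAC it was 0.12, 0.17 and 0.45, values that describe neighbouring steps sharing libraries and depth.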

How the data were processed

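The 3 SCR libraries were made with DpnII and Csp6I from cells fixed in 2% formaldehyde for 10 min. The deposited files hold counts per DpnII fragment. The authors trimmed the bait allowing 2 mismatches, mapped the remaining 27 nt to mm9 and assigned reads to fragments, leaving out, per the user guide, fragments with more than 2% of reads. The submitters' notes list Bowtie 1.0.0 and bcl2fastq. Counts were neither normalized nor freed of PCR duplicates. How reads were assigned to the 76 member fragments shorter than 27 bp is not given in the sources used here. All 391360 midpoints matched a DpnII fragment of the mm9 sequence, and genes are those of GENCODE vM1.

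From the counts, quantile normalized signals were computed within 1.5 Mb of the bait. Reads summed per step (20 kb, both sides, at least 10 reads) were tested with the quasi-likelihood test of edgeR 4.0.16 under R 4.3.3 (TMM scaling, Benjamini-Hochberg over all steps, threshold 0.05), and the side ratio as an interaction with a library term. The tests were checked on simulated data, where at the spread fitted here they missed most changes, so a step that was not called may still differ. Groups came from the labels, and the user guide calls the ES libraries biological replicates. Python version 3.11.15 drew the figures.

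Members, steps and lists were chosen with earlier results of these data known. Named were Sox2, Sox2ot, all genes overlapping the span or its mirror and the nearest beyond each, the 3 steps highest in each cell type, the last step, up to 5 called steps per direction, the 3 top fragments of each cell type (for ES cells by the lower of the 2 libraries) and the fragment with the start. Steps 21, 22 and 24 were named after their values were seen. Alternatives were DESeq2 version 1.42.0, other scalings, filters and step sizes, capping at the 99th percentile, fragments with GTAC, and leaving out a replicate. Fragments of at least 27 bp and steps without their top fragment were added after seeing the data. The genome sequence used here marks no repeats, so the repeat-masked share was not computed. The Satb1 and Ikzf1 libraries were not used here.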

Additional observations from a re-analysis of the deposited data

Results flagged for a closer look

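The ratio of the Sox2ot side to the mirror side differed between ES cells and NPC in step 2 (34490000 to 34509999), by 3.70 on the log2 scale, and in step 7 (34390000 to 34409999), by 4.14, each by a test of the difference itself (the interaction of side and cell type in edgeR, adjusted p = 0.020 and 0.024). In step 2 the ratio of normalized signals was above 1 in both ES libraries, at 2.35 and 4.08. In step 7 it was above 1 in ES replicate 1 only, at 2.24 against 0.670 in ES replicate 2. In NPC it was 0.178 and 0.0650. These 2 of 27 steps (7.41%) compare with 5.41% of all distances tested. Neither step passed with counts capped, or with fragments of at least 27 bp alone, and in those settings no distance tested passed.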

How the results depend on the processing

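No paired analysis was possible because there is only 1 NPC library and its labels give it no replicate number. The number of Sox2ot steps higher in ES cells was 4 of 27, against 7 of 147 over all steps. It was 2 with library totals, 2 with counts capped and 2 without the top fragment of each step, against 7, 2 and 4 of 147. It was 0 with DESeq2 size factors, with 40 kb steps, with GTAC fragments and with Sox2ot and mirror fitted alone, where no step tested was called. In those settings 7 of 27, 5 of 14, 4 of 27 and 7 of 27 had an unadjusted p under 0.05 in edgeR, and no share over all steps was taken for these. The number was 5 with DESeq2, 4 without a count filter, 4 with fragments of at least 27 bp and 5 of 53 in 10 kb steps. Over all steps it was 17 of 147, 7 of 148, 9 of 147 and 12 of 291. The median log2 change turned from 0.23 to -0.36 with library totals. The number of steps with a higher side ratio in ES cells, 2, was 0 in 40 kb steps, 0 with counts capped, 0 with fragments of at least 27 bp (4, 5 and 7 at an unadjusted p under 0.05 in edgeR) and 6 with DESeq2. Over all distances these numbers were 0 of 37, 0 of 74, 0 of 74 and 13 of 74, against 4 of 74 in the main test. The ES over NPC level, 1.29, was 1.06 with scaling to the reads within 1.5 Mb, 1.58 with quantile normalization over the chromosome, 1.51 over fragments with a read, 1.15 over GTAC fragments and 1.78 without the top fragments, and it turned to 0.869 when fragments with a read were counted. Leaving out an ES replicate gave 1.21 to 1.38. The Sox2ot to mirror ratio of ES cells turned from 0.868 to 1.10 as the mean of fragments with a read, and that of NPC went to 0.434. It was 0.806 to 0.930 when a replicate was left out. The ES over NPC value of this ratio, 2.51, was 2.93 without the top fragments and 2.33 to 2.69 without a replicate. Fits without an ES replicate have no residual degrees of freedom and gave no test. The causes were not tested. The median count of a detected fragment in NPC was 15 reads, which limits statements on single fragments there.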
